A study of Mus musculus with 13 samples.

Results

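Footprints on 10 genes of the mitotic control system were followed through endoplasmic reticulum (ER) stress. They are the cyclins Ccna2, Ccnb1, Ccnb2 and Ccnf, the kinases Cdk1, Plk1, Aurka, Aurkb and Bub1, and Cdc20, which activates the ubiquitin ligase that ends mitosis. They were chosen by symbol from the 22406 symbols in the gene tables, and all 10 passed the limit on low values in both tables (a mean TPM of 2, where TPM is a gene's share of a library per length of coding sequence), as did 10432 genes in the table of mouse embryonic fibroblasts (MEFs) and 10117 in the table of NIH3T3 cells. Ribosome footprint profiling sequences the pieces of mRNA that ribosomes cover, and gives each gene's share of the translating ribosomes. The study asked which genes change their translation under ER stress and which of these changes need PERK, the kinase encoded by Eif2ak3. WT MEFs and PERK -/- MEFs were left as control or treated with 1 µM thapsigargin (Tg), an inhibitor of the ER calcium pump SERCA, for 1, 2, 5 or 8 h. NIH3T3 cells, an established mouse fibroblast line, were left as control or treated with 200 nM Tg for 2 h or 7 h. Cells had been plated at low density the day before, and no cycloheximide was used in any group. The doses and times of the MEFs and of the NIH3T3 cells differ, except for the time of 2 h. The media differ too, since that of the MEFs also held non-essential amino acids and beta-mercaptoethanol. The labels name no clone, passage or embryo for the MEFs.

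Entry into mitosis is driven by CDK1 bound to a cyclin. Cyclin A2 acts from S phase into early mitosis, and the B-type cyclins carry the cell through it. PLK1 and the Aurora kinases build the spindle and the kinetochores, BUB1 serves the spindle checkpoint, and CDC20 then directs the anaphase-promoting complex (APC/C) to destroy the cyclins. Most of these genes are transcribed in G2 and M phase under the MuvB complexes, and PERK slows translation in ER stress by phosphorylating eIF2α. In these bulk samples fewer dividing cells and fewer footprints per dividing cell cannot be told apart, nor can less mRNA and less translation of it.

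There was 1 library per condition, 13 in all, so no comparison between conditions has a replicate check and no test was made. The libraries held 2525029 (WT MEFs at 2 h) to 14799515 expected counts, and each of the 10 genes had 32 to 5154 in every library. Intervals given below are exact 95% intervals of 2 expected counts over their library totals, and cover counting error only, as do those of a difference between 2 changes, which use a normal approximation. Changes of TPM are log2 ratios with values under 4 raised to 4, which touched none of the 10 genes. Eif2ak3 was lower in PERK -/- MEFs than in WT MEFs at each matched time, at 7.64 to 19.1 against 14.4 to 33.3 CPM (counts scaled to the library total), but was not absent there (74 to 142 counts), and totals per gene cannot show whether these footprints come from the deleted part of the gene. Of the 9 fibroblast markers examined, Vim, Col1a1 and Col1a2 were high in every library, whereas Col3a1 was at most 1.67 TPM in NIH3T3 cells and Pdgfra at most 2.79 in WT MEFs. Of the 12 markers of other cell types, Krt18 reached 16.01 TPM in WT MEFs and Krt8, Des and Cdh5 reached 15.6, 7.39 and 3.03 TPM in NIH3T3 cells, while Pou5f1 and Myog had no count and Pecam1 at most 1 in every library. Their summed TPM was 7.74 to 20.1 in WT MEFs, 9.99 to 11.9 in PERK -/- MEFs and 12.95 to 27.2 in NIH3T3 cells.

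A pair of short promoter elements are known from genes of this kind, the cell cycle genes homology region (CHR, searched as TTTGAA or TTCGAA) and the CCAAT box (searched as CCAAT), both on either strand and counted wherever they lay from 250 bases before to 50 bases after the transcript start. RefSeq promoters (GRCm38.p6) were at hand for 8 of the 10 genes, all but Ccna2 and Aurkb. A CHR element was found in 7 of the 8, all but Ccnb1, and a CCAAT box in 8 of 8. Among all 32851 promoters of that length, 19.2% held a CHR element, 37.4% a CCAAT box and 7.52% both. Among the 11020 promoters of genes tested in either cell type table, the shares were 13.8%, 38.6% and 5.75%. Stretches of 5 promoters are shown, because they hold several elements close together and because Ccnb1 differs from the others. All read 5′ to 3′ on the minus strand, capitals mark both elements on whichever strand they lie, and the letters are a description, not evidence of binding. In order, they lie at chr4:118437344-118437463, chr10:69352913-69353022, chr17:24251469-24251569, chr9:70421545-70421664 and chr13:100786546-100786596.
Cdc20: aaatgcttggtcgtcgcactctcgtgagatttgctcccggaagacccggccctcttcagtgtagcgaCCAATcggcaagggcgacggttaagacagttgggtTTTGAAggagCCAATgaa
Cdk1: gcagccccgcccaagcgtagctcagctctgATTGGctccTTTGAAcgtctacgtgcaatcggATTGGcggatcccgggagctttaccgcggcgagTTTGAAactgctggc
Ccnf: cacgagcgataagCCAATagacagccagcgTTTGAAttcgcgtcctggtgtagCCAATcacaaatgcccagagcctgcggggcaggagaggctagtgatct
Ccnb2: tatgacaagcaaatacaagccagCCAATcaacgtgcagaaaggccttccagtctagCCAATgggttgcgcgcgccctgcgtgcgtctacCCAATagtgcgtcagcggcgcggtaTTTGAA
Ccnb1: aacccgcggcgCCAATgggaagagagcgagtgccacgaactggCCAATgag

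The CHR element of Cdc20 starts 18 bases before the transcript start, between 2 CCAAT boxes. Ccnb2 has 2 CHR elements, of which the more distant lies upstream of the stretch shown. The other starts 5 bases after the transcript start, behind 3 CCAAT boxes. Ccnf and Cdk1 also have 2 CHR elements each, and Cdk1 has 3 boxes. Of the other mitotic genes listed further on, 75 promoters of 63 genes were matched, of which 53.3% held a CHR element and 60.0% a CCAAT box.

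**Figure D1:**
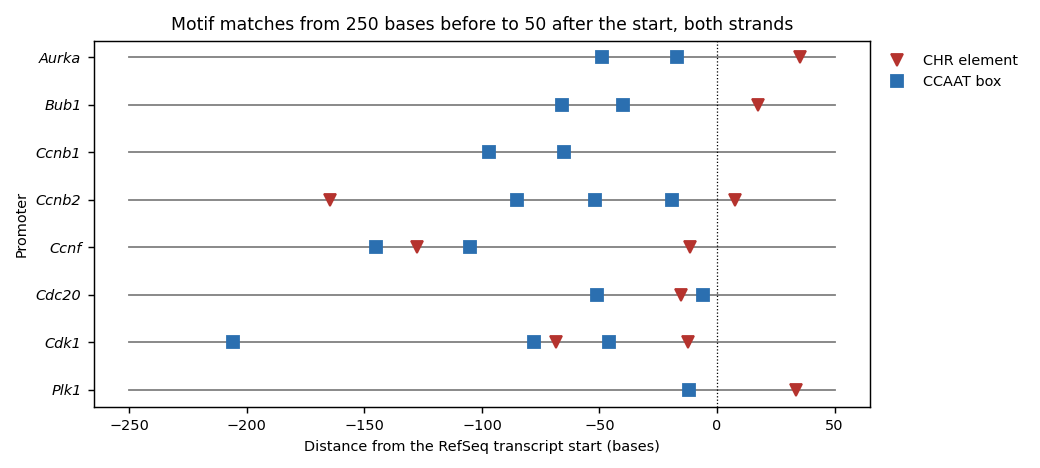
Position of each CHR element (red triangles) and CCAAT box (blue squares) in the RefSeq promoters of 8 genes, in bases from the transcript start (dotted line); each symbol is 1 match on either strand. Ccnb1 is the 1 promoter of the 8 without a CHR element, and the CHR elements of Aurka, Bub1 and Plk1 start 33, 15 and 31 bases after the start.

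In NIH3T3 cells all 10 genes were below the control at both times, beside 58.8% of all genes tested at 2 h and 49.6% at 7 h. The summed TPM of the 10 genes was 1128 in control cells, 704 after 2 h and 581 after 7 h, and the median log2 change of TPM was -0.66 at 2 h and -0.98 at 7 h, beside medians of -0.13 and 0 over all genes tested, which leaves -0.53 and -0.98 relative to all genes. At 2 h, 2 of 10 genes were at least 2-fold lower (Ccna2 and Ccnf), beside 3.76% of all genes tested, and none at least 2-fold higher, beside 5.76%. At 7 h the count was 5 of 10 (Ccna2, Ccnb2, Ccnf, Cdk1 and Plk1), beside 8.06%, and 4 with TMM factors, DESeq2 size factors or the GC trend removed, since Plk1 lies at the threshold. None was at least 2-fold higher, beside 7.01%. The counting interval lay below 0 for 8 genes at 2 h, the exceptions being Ccnb2 and Bub1, and for all 10 at 7 h. The share of all genes tested with such an interval was not computed. The direction held for all 10 genes at both times in each of the 9 settings computed. Among these were other scalings of the counts and the removal of a trend on GC content. A 1 TPM floor, log2(TPM + 1), a mean of at least 5 TPM, no filter or another fold threshold could not change a direction of these genes. The scalings of the counts differ from each other only by a factor per library, so they are not separate checks. The summed TPM of the 9 fibroblast markers was 8983, 8884 and 5278 in the same 3 libraries, and its part in the change at 7 h was not tested.

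In WT MEFs the summed TPM of the 10 genes was nearly level, with 1206 before Tg and 1312, 1169, 1182 and 1209.8 after 1, 2, 5 and 8 h. The median log2 changes were 0.11, 0.01, -0.01 and -0.01, beside medians of 0 to 0.01 over all genes tested, and the signs at 2 h, 5 h and 8 h depended on the setting. These medians cover genes that went apart. Ccna2 and Ccnf were lower and Cdc20 and Ccnb1 higher than the control in all 4 Tg libraries, in all 9 settings. Only Ccnf at 2 h was at least 2-fold lower, 1 of 10 genes beside 4.01% of all genes tested. At 1 h, 5 h and 8 h none of the 10 was, beside 2.29%, 3.55% and 3.87%. None was at least 2-fold higher at any time, beside 4.33%, 5.66%, 5.86% and 6.45% at 1, 2, 5 and 8 h.

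In PERK -/- MEFs the summed TPM was 1416 in the control, 1301 and 1299 at 1 h and 2 h, and 1637 and 1567 at 5 h and 8 h. By this sum the late libraries were above the control and the early ones below it. The median log2 changes were -0.10, -0.14, 0.18 and 0.16, beside -0.06, -0.11, 0 and 0.04 over all genes tested, so relative to all genes they were -0.03, -0.02, 0.18 and 0.12. The sign of both early medians depended on the scaling, since TMM factors gave 0.01 at 1 h and 0.03 at 2 h, and DESeq2 size factors 0.01 and 0.05. Relative to all genes they were 0.02 and 0.05 with counts per library total or either scaling, so no direction is read from them. No gene of the 10 changed 2-fold at any time. Of all genes tested, 0.719%, 0.623%, 3.26% and 3.28% were at least 2-fold higher at 1, 2, 5 and 8 h, and 3.38%, 5.78%, 4.77% and 2.73% at least 2-fold lower. The 4 Tg libraries of a MEF line share 1 control library, so a deviation of that control would shift all 4 changes together. Set against each other without the control, the 5 h and 2 h libraries of PERK -/- MEFs differed by a median of 0.38 over the 10 genes, beside 0.09 over all genes tested, and ranged from -0.16 (Bub1) to 0.90 (Plk1). The median absolute difference of the 10 genes was 0.38 there, beside 0.35 over all genes tested. Between 1 h and 2 h it was 0.05 in PERK -/- MEFs and 0.17 in WT MEFs, beside 0.15 and 0.22. Between 5 h and 8 h it was 0.09 and 0.08, beside 0.28 and 0.08.

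**Figure D2:**
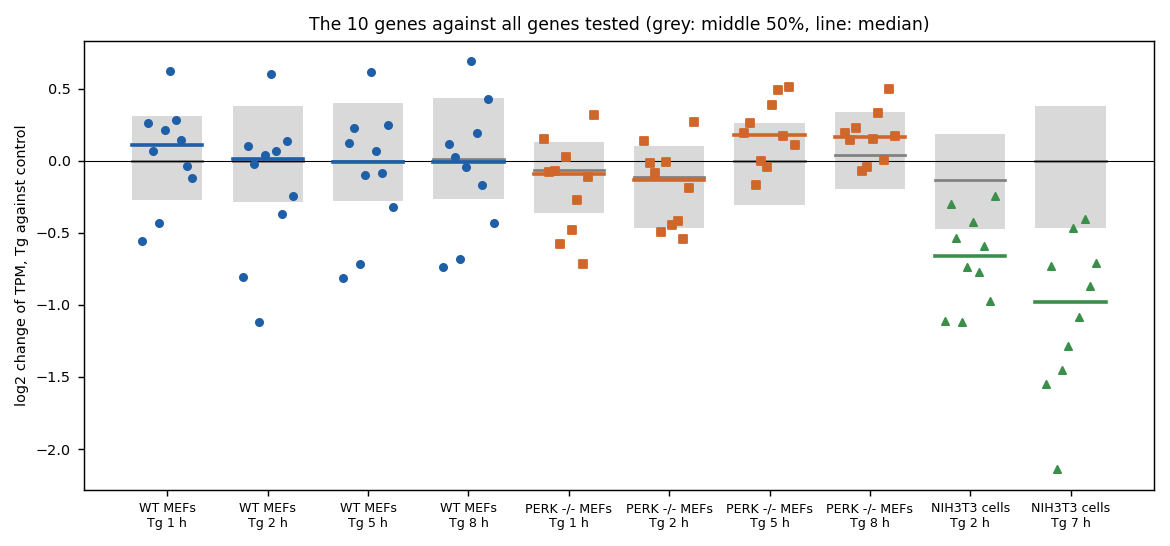
The log2 change of TPM against the library's own control for the 10 genes (points, with their median as a coloured line) in each of the 10 Tg libraries, and for all genes tested (grey box from the lower to the upper quartile, grey line at the median). In NIH3T3 cells every point lies below 0, whereas the points of both MEF lines lie on both sides.

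The level of each gene in the control libraries set the starting point. By TPM, which is per length, the order in control WT MEFs was Cdk1 (257), Ccnb1 (228), Ccna2 (226), Cdc20 (132), Aurka (101), Plk1 (88.8), Aurkb (57.5), Ccnb2 (52.3), Bub1 (37.8) and Ccnf (25.7). Without replicates it cannot be said which neighbours in this order differ beyond their spread. Between the control libraries, the level of Ccnb2 in PERK -/- MEFs was 1.86 times that in WT MEFs, and those of Plk1 and Cdc20 were 1.52 and 1.45 times. Bub1 was at 0.806 times. Control NIH3T3 cells had Ccna2, Cdk1 and Plk1 within 0.945 to 1.08 times the level of control WT MEFs, but Ccnb2 at 0.358 times and Bub1 at 0.470 times. The NIH3T3 table was deposited apart from the MEF table, so these last ratios are across tables.

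**Figure D3:**
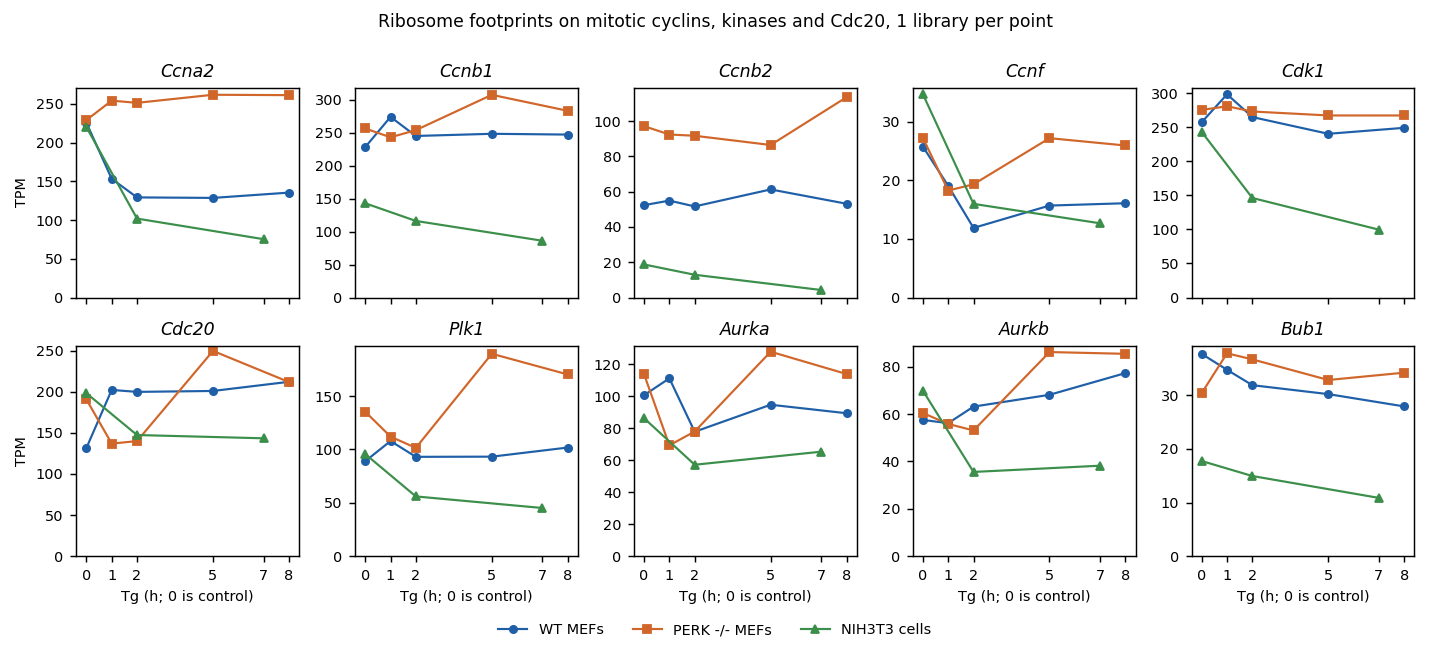
TPM of each gene (vertical axis, from 0) against hours of Tg (0 is the control) in WT MEFs (blue circles), PERK -/- MEFs (orange squares) and NIH3T3 cells (green triangles), 1 library per point. Ccna2 parts from a shared start near 220.3 to 229 TPM, remaining at 251 or more in treated PERK -/- MEFs and as low as 129 in WT MEFs and 75.4 in NIH3T3 cells.

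Ccna2, at chr3:36564865-36572150 on the minus strand (GRCm38, as are all gene positions here), encodes cyclin A2, the partner of CDK2 in S phase and of CDK1 in G2. In WT MEFs the control library had 226 TPM, and those of 1, 2, 5 and 8 h had 153, 129, 129 and 135.5. In PERK -/- MEFs it was 229 in the control and 254, 251.5, 262 and 261. All 4 treated WT libraries were thus below the lowest PERK -/- library. In NIH3T3 cells it was 220.3, 102 and 75.4 in the control and at 2 h and 7 h. On the log2 scale of TPM the changes were -0.56, -0.80, -0.81 and -0.74 in WT MEFs, between 0.13 and 0.19 in PERK -/- MEFs, and -1.11 and -1.55 in NIH3T3 cells. The difference between the 2 MEF lines (WT minus PERK -/-) in the log2 change of counts was -0.72 (95% interval -0.87 to -0.58) at 1 h and -1.04 (-1.17 to -0.91) at 5 h. These signs were the same in all 9 settings.

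Ccnb1, at chr13:100778650-100786570 on the minus strand, encodes cyclin B1, the main partner of CDK1 at entry into mitosis. Its TPM was 228 in control WT MEFs and 274, 245, 248.6 and 247.5 at the 4 times. PERK -/- MEFs had 257 in the control and 243, 254, 308 and 283.5. Both MEF lines stayed within a narrow range, with the highest library 1.201 and 1.265 times the lowest. NIH3T3 cells had 143, 116 and 86.2, a log2 change of TPM of -0.73 at 7 h (interval of the counts -0.85 to -0.61).

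Ccnb2, at chr9:70407692-70421547 on the minus strand, encodes cyclin B2, a B-type cyclin associated with the Golgi. It showed the largest change of the 10 genes. NIH3T3 cells started at 18.7 TPM and had 12.9 at 2 h and 4.25 at 7 h, a 4.41-fold lower level at 7 h that rests on 32 counts against 272. The log2 change was -2.14, with a counting interval of -2.71 to -1.61. In WT MEFs the level hardly moved, at 52.3 in the control and 54.9, 51.6, 61.2 and 53.1 TPM. In PERK -/- MEFs it was 97.1 in the control and 92.4, 91.65, 86.4 and 113.5, so all 5 libraries were above all 5 of WT MEFs.

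Ccnf, at chr17:24222198-24251484 on the minus strand, encodes cyclin F, which activates no CDK but selects substrates for an SCF ubiquitin ligase. It had the lowest TPM of the 10 genes in each library of WT MEFs. Its TPM was 25.7 in the control and 19.0, 11.9, 15.7 and 16.1 in WT MEFs, and 27.2 in the control and 18.2, 19.3, 27.2 and 25.9 in PERK -/- MEFs. Both lines were thus lower at 1 h and 2 h, and at 5 h and 8 h PERK -/- MEFs were near their control while WT MEFs were still below theirs. The difference of the changes (WT minus PERK -/-) was 0.14 (-0.16 to 0.45) at 1 h on the log2 scale of counts. It was already -0.67 (-1.05 to -0.29) at 2 h. At 5 h and 8 h it was -0.74 (-1.02 to -0.45) and -0.58 (-0.83 to -0.32). NIH3T3 cells started at 34.65 TPM and had 15.96 at 2 h and 12.65 at 7 h, with log2 changes of -1.12 and -1.45.

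Cdk1, at chr10:69335146-69352938 on the minus strand, encodes the catalytic subunit that these cyclins switch on. It moved least in PERK -/- MEFs, with 275 TPM in the control and 281, 273, 267 and 267 at the 4 times. WT MEFs had 257 in the control and 298, 265, 240.3 and 249.04. NIH3T3 cells had 243, 146 and 99.6, the largest difference from control among the 5 kinases at 7 h, with a log2 change of -1.29 (interval of the counts -1.42 to -1.15). At the shared time of 2 h the doses and media differ. The log2 change was then -0.73 in NIH3T3 cells at 200 nM and 0.04 in WT MEFs at 1 µM.

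Plk1, at chr7:122159439-122169873 on the plus strand, encodes Polo-like kinase 1, which matures centrosomes and promotes CDK1 activation. PERK -/- MEFs had 135 TPM in the control, 112 and 101 at 1 h and 2 h, and 189.6 and 170.2 at 5 h and 8 h. The 2 early libraries were below the control and the 2 late ones above it, with log2 changes of -0.27, -0.42, 0.49 and 0.33. WT MEFs stayed between 88.8 in the control and 108 at 1 h, with 93.0, 93.15 and 102 at 2 h, 5 h and 8 h, and with the GC trend removed their changes at 2 h, 5 h and 8 h turned to -0.11, -0.14 and -0.04. NIH3T3 cells had 95.6, 55.9 and 45.0, a log2 change of -1.09 at 7 h.

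Aurka, at chr2:172356190-172370535 on the minus strand, encodes Aurora A, the kinase of centrosomes and spindle poles. Its TPM in PERK -/- MEFs was 114 in the control, 69.25 and 77.9 at 1 h and 2 h, and 128 and 114 at 5 h and 8 h. The log2 change of -0.72 at 1 h was the lowest of the 10 genes in that line, and at 8 h the level was again that of the control. WT MEFs had 101 in the control and 111, 77.7, 94.6 and 89.3, lower than the control from 2 h on. NIH3T3 cells had 86.2, 57.1 and 65.3, so Aurka was the gene of the 10 with the smallest change at 7 h (-0.40), and by TPM was higher at 7 h than at 2 h. By counts per library total the log2 changes at 2 h and 7 h were close, at -0.44 (-0.66 to -0.24) and -0.40 (-0.55 to -0.25).

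Aurkb, at chr11:69045647-69051664 on the plus strand, encodes Aurora B, the kinase of the chromosomal passenger complex. In PERK -/- MEFs its TPM was 60.4 in the control, 55.8 and 53.1 early, and 86.2 and 85.5 at 5 h and 8 h, with late log2 changes of 0.51 and 0.50. WT MEFs had 57.5, 56.2, 63.15, 68.1 and 77.3 in order of time. The TPM and the counts went apart here, since the log2 changes at 2 h, 5 h and 8 h were 0.13, 0.24 and 0.43 by TPM but -0.10, 0.03 and 0.27 by counts per library total, of which only the last had an interval above 0 (0.12 to 0.42). NIH3T3 cells had 69.9, 35.5 and 38.2.

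Bub1, at chr2:127801122-127831865 on the minus strand, encodes the kinase that recruits checkpoint proteins to kinetochores. WT MEFs had 37.8, 34.8, 31.9, 30.25 and 27.95 TPM in order of time, each lower than the one before. PERK -/- MEFs had 30.45 in the control and 37.9, 36.7, 32.9 and 34.3, all above it. The coding sequence of Bub1 has a GC content of 40.8%, the lowest of the 10 (highest 56.4%, Plk1; median of all genes tested 52.8%). With a trend on GC content removed, the WT change at 8 h was -0.01 in place of -0.43, those at 1 h, 2 h and 5 h turned positive, and the PERK -/- changes at 1 h and 2 h were 0.07 and -0.08 in place of 0.31 and 0.27. NIH3T3 cells had 17.75, 14.95 and 10.9 TPM, with a log2 change of -0.71 at 7 h, also -0.71 with that trend removed.

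Cdc20, at chr4:118432901-118437352 on the minus strand, encodes the activator that points the APC/C at the B-type cyclins and is held back by the spindle checkpoint. It was the gene of the 10 furthest above control in each treated WT library. WT MEFs had 132 TPM in the control and 202, 200.03, 201 and 212 at the 4 times, so the treated libraries lay close together and far from the control. PERK -/- MEFs had 191 in the control, 137 and 140.0 at 1 h and 2 h, and 249.96 and 212 at 5 h and 8 h. The log2 changes were 0.62, 0.60, 0.61 and 0.69 in WT MEFs and -0.48, -0.45, 0.39 and 0.15 in PERK -/- MEFs, with these signs in all 9 settings. With the GC trend removed the WT change at 8 h was 0.49. The difference of the changes (WT minus PERK -/-) by counts was 1.08 (0.95 to 1.22) at 1 h and 0.98 (0.84 to 1.12) at 2 h. At 5 h and 8 h it was 0.19 (0.07 to 0.31) and 0.55 (0.43 to 0.66). In NIH3T3 cells Cdc20 had 198, 147 and 143 TPM, below the control at both times.

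**Figure D4:**
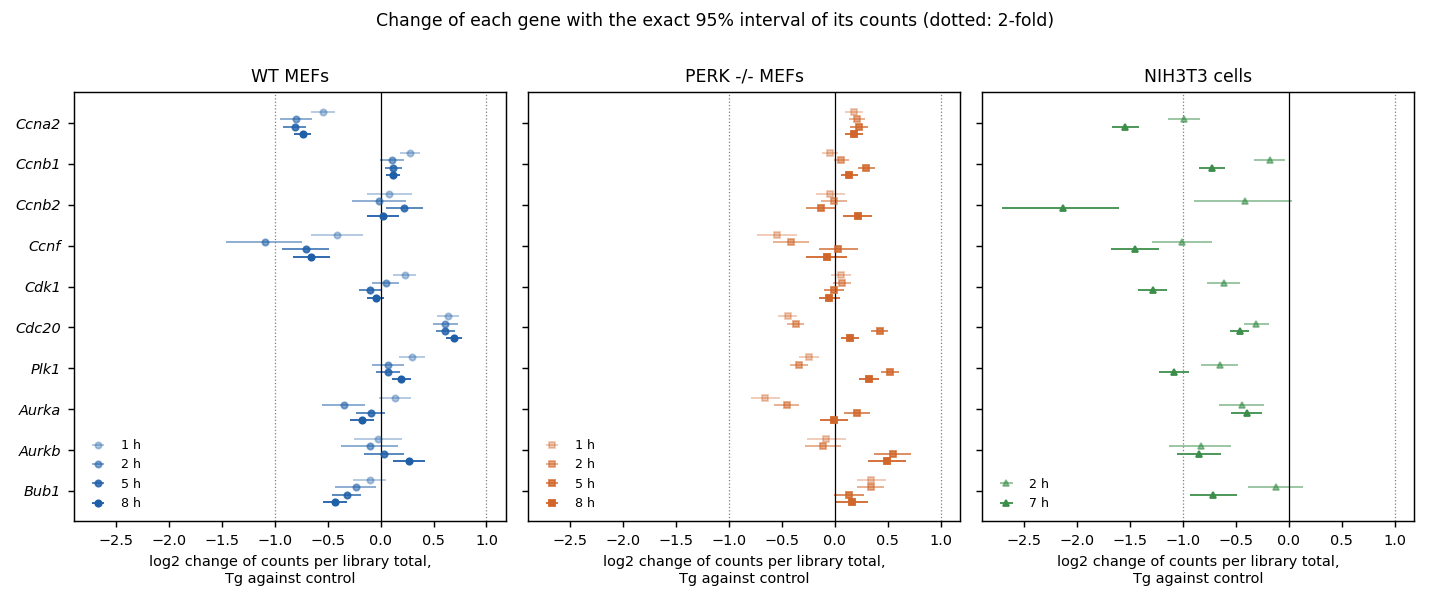
The log2 change of expected counts per library total, Tg against control, for each gene (rows) in the 3 cell types (panels); points are single libraries, darker with time, and bars are exact 95% intervals of the counts. Ccna2 and Ccnf lie left of 0 in WT MEFs and Cdc20 right of it, and in NIH3T3 cells at 7 h all 10 intervals lie left of 0.

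Over the 10 genes, the sign of the difference between the 2 MEF lines varied with time. The interval of the difference in change (WT minus PERK -/-) lay above 0 for 5 genes and below 0 for 2 at 1 h, the latter Ccna2 and Bub1. At 5 h it lay below 0 for 7 genes and above 0 for 2 (Ccnb2 and Cdc20). At 2 h and 8 h it spanned 0 for 5 and 6 genes. The share of all genes tested with such intervals was not computed, so these counts have no background to be read against. The median difference of the TPM changes was 0.16, 0.09, -0.26 and -0.15 at the 4 times, beside 0.09, 0.19, 0.04 and 0 over all genes tested. These intervals hold no variation between cultures. The summed fibroblast markers of PERK -/- MEFs were at 7433 TPM in the control and 5461, 4826, 5778 and 6086 at the 4 times, against 6601 in control and 5810 to 5913 in treated WT MEFs, and their part in the differences was not tested.

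The other mitotic genes were read from 7 lists of 77 genes in all, of which 77 were tested in MEFs and 76 in NIH3T3 cells. In NIH3T3 cells at 7 h, 65 of the 76 were below the control, beside 49.6% of all genes tested. At least 2-fold lower were 11, beside 8.06%, and the median log2 change of TPM was -0.65. In WT MEFs at 8 h, 41 of 77 were below and 36 above, beside 41.1% and 50.4% of all genes tested, with a median of -0.09 beside 0.01. In PERK -/- MEFs the medians were 0.20 and 0.17 at 5 h and 8 h, beside 0 and 0.04 over all genes tested. Above the control were 52 and 57 of 77, beside 44.8% and 53.7% of all genes tested. The median of the 10 genes at 7 h in NIH3T3 cells was thus below that of each of the 7 lists, which ran from -0.39 to -0.84.

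The genes named here are, in each list, the first 2 expressed and the highest and lowest in WT MEFs at 8 h. Their spread in that library thus follows from the choice. Among checkpoint and APC/C genes, Mad2l1, a checkpoint inhibitor of CDC20, had log2 changes of -0.93 in WT MEFs at 8 h, 0.12 in PERK -/- MEFs at 8 h and -0.69 in NIH3T3 cells at 7 h. Fzr1, the other activator of the APC/C, had 0.69, 0.12 and -0.78, and Bub1b, a kinase-like checkpoint protein, -0.07, 0.17 and -1.10.

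Among genes that control CDK1, Gadd45a, a stress gene whose product inhibits the CDK1-cyclin B complex, stood apart with 3.74 in WT MEFs at 8 h, -0.34 in PERK -/- MEFs and 2.96 in NIH3T3 cells. Cdc25b, a phosphatase that activates CDK1, had -0.53, 0.64 and -1.47, and Wee1, the kinase that inhibits it, 0.50, -0.17 and -0.52. Arpp19, an inhibitor of the opposing phosphatase, had -0.56, -0.06 and -0.40. Among partners of the kinases, the passenger proteins Incenp and Birc5 had -0.89 and -0.90 in NIH3T3 cells at 7 h but 0.13 and 0.19 in WT MEFs at 8 h.

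In WT MEFs at 8 h the centrosomal kinase Nek2 had 0.39 and Gsg2, which encodes haspin, -0.49. The spindle motor Kif11 had -0.58 there and Kif18b 0.72, while Kif20a had 0.07. Of kinetochore genes, Nuf2 had -0.90, Ndc80 -0.10 and Spc24 0.74, of which Nuf2 and Spc24 were named as the lowest and highest of their list in this library. The condensin genes Smc2 and Smc4 had -0.64 and -0.70 and Ncapd2 0.53.

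Of transcription regulators, Foxm1, which encodes an activator of G2 and M phase genes, had log2 changes of 0.34 in WT MEFs at 8 h, 0.30 in PERK -/- MEFs at 8 h and -1.01 in NIH3T3 cells at 7 h. Mybl2, the MuvB partner B-Myb, had 0.46, 0.40 and 0.16. The repressor gene E2f8 had -1.20, -0.19 and -0.82, and Lin52, a MuvB subunit, 1.28, 1.80 and -0.85.

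**Figure D5:**
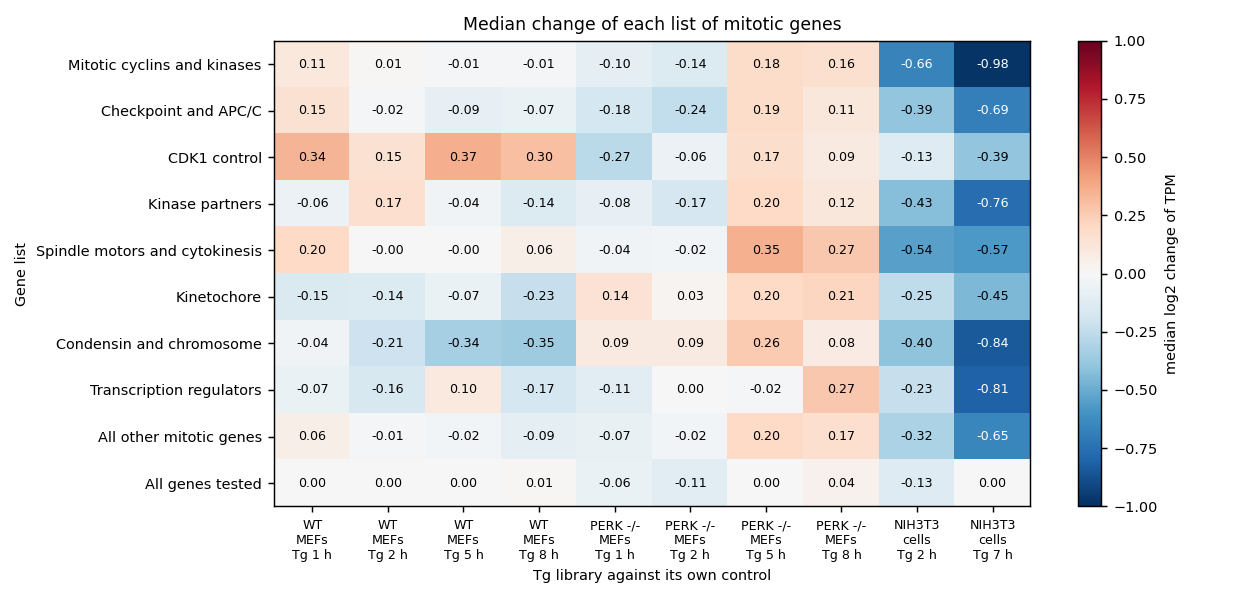
Median log2 change of TPM of the 10 genes (top row), of each of the 7 other lists, of their union and of all genes tested (bottom row) in each Tg library (columns) against its own control, written in each cell and coloured from blue (lower) to red (higher). In NIH3T3 cells every list is below 0 at both times, and the 10 genes have the lowest median of any list at each.

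The mean profile of the 10 genes over the 13 libraries (log2 TPM, each gene centred within each line) ran from -0.49 to 0.58. The centring removes differences in level between the WT MEFs, PERK -/- MEFs and NIH3T3 cells. The mean TPM of 5103 genes, members of the 10 included, reached 16 in both tables. Of these, leaving out the members, the 10 most like the profile by Pearson correlation were Fam83d, Traf7, Cdca3, Dag1, Kctd17, Tpx2, Pcyox1, Clstn1, Tmem9b and Ppp2r5d, with r from 0.93 to 0.95. Only Tpx2, the activator of Aurora A, is in the 7 lists. Absence from these lists does not show that a gene has no role in mitosis. The libraries share 3 controls and differ in depth and cell line, so these values describe the profile and carry no test. Each gene's correlation with the mean of the other 9 was 0.49 (Cdc20) to 0.90 (Ccnb1 and Plk1) over 13 libraries, but over the 10 MEF libraries alone it was -0.27 for Bub1, -0.06 for Cdk1 and 0.12 for Ccna2, against 0.90 for Aurka and 0.87 for Plk1.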

How the data were processed

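The authors used footprints 22 to 34 nt long. Reads matching rRNA or tRNA were taken out using STAR. Bowtie2 placed what remained on mm10 RefSeq coding sequences (from transcripts of 100 nt or more, less 30 nt at either end), and RSEM gave the values per gene. Versions are not given in the sources used here. The authors deposited expected counts as whole numbers per gene, not scaled between libraries, and TPM values scaled within each library, so both are relative to the ribosomes still translating.

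Following the study's methods, genes were kept if their mean TPM over a table's libraries reached 2, values below a floor of 4 TPM were set to it, and Tg libraries were divided by the control of their line, with a change of at least 2-fold as the call. Exact conditional (Clopper-Pearson) intervals at 95% were computed with scipy 1.17.1 from the expected counts and library totals, and for a difference between 2 changes by a normal approximation from 4 counts with 0.5 added to each. No count test was run, because each condition has 1 library. The scripts for changes and counting intervals were tested on simulated data.

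The 10 genes, Eif2ak3, the 7 lists and the markers were chosen with earlier results of these data known. The other genes named are, in each list, the first 2 expressed and the highest and lowest in WT MEFs at 8 h, plus the 10 most like the mean profile. Coordinates and GC content came from GENCODE M21 (GRCm38, the assembly of mm10) and covered 96.1% of tested genes in MEFs and 95.7% in NIH3T3 cells. Promoters came from RefSeq. A search of the proteins for degradation motifs was planned and not run, as no protein table was used here. Alternatives tried were log2(TPM + 1) without a floor, a 1 TPM floor, a mean of at least 5 TPM, no filter, counts per library total with 0.5 added, TMM factors (edgeR 4.0.16), DESeq2 1.42.0 size factors, the removal of a lowess trend on GC content (fraction 0.3, statsmodels 0.14.6) and a 1.5-fold threshold.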

Additional observations from a re-analysis of the deposited data

Results flagged for a closer look

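Some genes were above their control in every Tg library of a line and below it in every Tg library of another. Each set of Tg libraries shares 1 control, and the doses and media differ between MEFs and NIH3T3 cells. The differences over all Tg libraries were not tested. Ccna2 was above control in all 4 treated PERK -/- libraries, with a median log2 change of 0.17, and below it in all 4 of WT MEFs (median -0.77) and both of NIH3T3 cells (median -1.33). Bub1 had the same pattern, with a median of 0.22 in PERK -/- MEFs, -0.28 in WT MEFs and -0.48 in NIH3T3 cells, but with the GC trend removed its sign changed in WT MEFs at 1 h, 2 h and 5 h and in PERK -/- MEFs at 2 h. Against NIH3T3 cells, 3 genes were above control in all 4 treated WT libraries. Cdc20 had a median of 0.62 in WT MEFs and -0.45 in NIH3T3 cells, Ccnb1 0.12 and -0.52, and Plk1 0.13 and -0.93. The signs of Plk1 in WT MEFs at 2 h, 5 h and 8 h turned with the GC trend removed.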

How the results depend on the processing

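All 10 genes were below control at both times in NIH3T3 cells in each of the 9 settings, whereas in WT MEFs the sign depended on the setting for 1, 5, 4 and 3 of 10 genes at 1, 2, 5 and 8 h, and in PERK -/- MEFs for 3, 4, 1 and 1. The settings of a 1 TPM floor, log2(TPM + 1), a mean of at least 5 TPM, no filter and another fold threshold could not change a sign. Counts per library total, TMM and DESeq2 size factors differ from each other only by a factor per library. A sign that held in all 9 settings thus passed few separate checks. The median in PERK -/- MEFs at 2 h (-0.14) became 0.030 under TMM and 0.046 under DESeq2 size factors, and that in NIH3T3 cells at 2 h (-0.66) became -0.47 with DESeq2 size factors. Smaller moves also crossed 0. The median in PERK -/- MEFs at 1 h (-0.10) was 0.01 under either scaling, that in WT MEFs at 2 h (0.01) was -0.05 with counts per library total, -0.12 under TMM and -0.11 under DESeq2, and those at 5 h and 8 h (-0.01 each) were 0.02 and 0.03 with the GC trend removed. The 2 genes at least 2-fold lower in NIH3T3 cells at 2 h became 1 with counts per library total and 0 with TMM factors or DESeq2 size factors, since Ccna2 and Ccnf lie just past the threshold, and the 5 at 7 h became 4 under TMM, DESeq2 size factors or the GC trend removed. At 1.5-fold, 1 gene was higher in WT MEFs at each time, beside 12.8% to 17.8% of all genes tested, and 2 were lower at 2 h, 5 h and 8 h, beside 11.6% to 12.3%. None was lower in WT MEFs at 1 h, beside 10.2%. In PERK -/- MEFs 1 was lower at 1 h, beside 13.4%, and 0 at 2 h, 5 h and 8 h, beside 18.8%, 12.8% and 8.22%. There 0 were higher at any time, beside 3.57% to 12.5%. No result about the 10 genes is read from these MEF counts. In NIH3T3 cells 6 and 8 were lower at 2 h and 7 h, beside 18.2% and 20.1%. Counts per library total moved the median of all genes in WT MEFs to between 0.05 and 0.10 and in NIH3T3 cells at 7 h to -0.10. No paired analysis was possible because the labels carry no replicate numbers and each condition has 1 library, and for the same reason no replicate could be left out. Depth limits Ccnb2 most (32 counts in NIH3T3 cells at 7 h), and intervals cover counting error only.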
